A study of Mus musculus with 12 samples.

Results

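Older L1 copies are the remnants of long interspersed element 1 (L1) sequences that entered the mouse genome before the L1Md families, and they are described here in 12 mouse melanoma tumours. They were taken by annotation alone, as every repeat of the family LINE/L1 whose subfamily name does not start with L1Md. This gave 106727 copies in 146 subfamilies, of 662466 copies of transposable elements (TEs) in 1853 subfamilies, and left 46747 young L1Md copies in 78 subfamilies for comparison. Positions are on the build mm10, counted from 1.

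A full L1 element carries a promoter, 2 reading frames for an RNA-binding protein and for an endonuclease and reverse transcriptase, and a 3′ end followed by a run of A. Insertion by reverse transcription often stops early, so most copies in a genome are 5′ truncated, and old ones carry many mutations and no working reading frames. The Lx subfamilies belong to the rodent lineage, the L1M subfamilies predate the split of the main groups of placental mammals, and HAL1 elements are an old relative that lost 1 of the reading frames. Such copies have become part of introns, 3′ untranslated regions (3′ UTRs) and long non-coding RNAs, so that RNA counted in them can be part of another transcript as well as of an L1 transcript.

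The tumours descend from YUMM1.7, a mouse melanoma cell line. According to the labels, the cultured line was injected into syngeneic mice to give F0 tumours, and dissociated tumours seeded each next passage in turn. Polyadenylated RNA was sequenced from 3 tumours each of the F0 passage and of the later passages N2.1, then Balb/c-2, then CBA, with the letters A to C for different tumours of a passage. All groups share the same cell line, and no other treatment is named. Balb/c and CBA are names of mouse strains, but the labels do not give the strain, age or sex of the hosts, and a copy that differs in sequence between host strains cannot be told apart from one that differs in RNA level. The library names place every F0 and N2.1 tumour and tumour A of Balb/c-2 on a first flow cell, and the other Balb/c-2 tumours with every CBA tumour on a second. CBA against F0 is therefore also a comparison of flow cells. A covariate for flow cell can be estimated only from Balb/c-2 A against Balb/c-2 B and C, as no other passage spans both.

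Values are normalised read counts, in which 1 read is worth between 0.827 and 1.25 units. Recovered reads summed over all repeats and genes were 34721735 to 59404254 per library, which is not the sequencing depth. The melanocyte markers Tyr, Dct and Mlana, which encode pigment enzymes and a melanosome protein, were at or near 0 in every tumour, with highest values of 0.827, 7.44 and 2.80. Other markers of the same list were present: Mitf stood at 318 to 1290, Pmel at 12.5 to 59.6 and Sox10 at 0.954 to 178. None of these was called in any comparison with F0. Summed values of 4 markers of all leukocytes were 53172 to 54059 in N2.1, 35915 to 79066 in Balb/c-2 and 30044 to 39861 in CBA, against 23777 to 34479 in F0. Summed markers of B and plasma cells were 77370 in Balb/c-2 A and 940 to 6572 in the other tumours of the later passages, against 723 to 3185 in F0. In bulk RNA, a change in the number of cells of a type and a change in RNA per cell cannot be told apart.

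Stretches of 3 older copies that lie in exons of non-coding transcripts are printed from the GENCODE M21 transcripts, in lower case and 5′ to 3′ along the transcript. They are the named copies that lie in exons and overlap no untranslated region. The Lx10 copy was higher than in F0 in each later passage and the Lx2B2 copy was lower in Balb/c-2. The L1MB3 copy was higher in N2.1 and holds the end of its transcript. Capitals mark the polyadenylation signal motif AATAAA.
Lx10, chr7:88312603-88312902, plus strand, in the lincRNA Gm44751: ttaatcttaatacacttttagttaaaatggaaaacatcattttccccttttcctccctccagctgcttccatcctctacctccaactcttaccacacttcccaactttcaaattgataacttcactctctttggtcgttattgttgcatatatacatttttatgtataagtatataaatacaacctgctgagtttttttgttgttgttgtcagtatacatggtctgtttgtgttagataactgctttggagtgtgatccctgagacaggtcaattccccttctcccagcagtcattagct
Lx2B2, chr5:13604986-13605285, plus strand, in the transcript Gm43719: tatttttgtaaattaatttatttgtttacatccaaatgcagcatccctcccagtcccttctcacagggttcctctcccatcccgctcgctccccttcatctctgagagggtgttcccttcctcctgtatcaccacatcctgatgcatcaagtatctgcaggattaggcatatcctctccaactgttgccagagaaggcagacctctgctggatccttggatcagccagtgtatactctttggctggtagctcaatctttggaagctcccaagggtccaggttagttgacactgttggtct
L1MB3, chr17:13341241-13341510, minus strand, in the pseudogene AC166110.3: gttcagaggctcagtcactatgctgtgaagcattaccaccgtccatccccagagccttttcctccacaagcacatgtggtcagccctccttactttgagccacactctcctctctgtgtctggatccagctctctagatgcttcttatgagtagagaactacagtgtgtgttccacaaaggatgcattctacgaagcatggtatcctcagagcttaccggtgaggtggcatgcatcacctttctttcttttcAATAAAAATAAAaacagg
These stretches cover 300 of the 504 bases of the Lx10 copy, 300 of the 659 bases of the Lx2B2 copy and 270 of the 535 bases of the L1MB3 copy. Their GC content was 37.0%, 48.3% and 47.0%, against a median of 40.1% over 883 exonic tested copies with enough exonic sequence. The L1MB3 stretch held 2 adjacent matches of AATAAA close to its 3′ end. On the transcript strand the motif was found in 16.4% of 482 exonic tested copies with 300 exonic bases, and in 40.5% on either strand. In 32851 RefSeq promoter windows of 300 bases, the motif was found on the gene's strand in 11.3% and on either strand in 19.6%. A match is a run of letters and shows no cleavage of RNA there.

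Averaged over all tumours, most of the signal of older L1 copies came from the few copies that overlap exons. Of the 106727 copies, 5213 overlapped an exon (4.88%), 51923 lay in introns (48.7%) and 49591 outside genes (46.5%). The exonic copies held 61.2% of the mean signal, the intronic ones 20.4% and those outside genes 18.4%. In Balb/c-2 A the exonic share was 36.8%. At least 1 base in an exon made a copy exonic. When the larger part of a copy had to lie there, exonic shares averaged 58.3% in F0, 56.5% in N2.1, 47.9% in Balb/c-2 and 53.6% in CBA. Per kilobase, exonic copies had a mean signal of 36.1, intronic copies 1.08 and copies outside genes 0.694. Exons held 39.4% of the signal of young L1Md copies and 70.7% of that of all TEs. The signal was also held by few copies: the 10 highest had 12.6% of it, the 100 highest 37.6% and the 1000 highest 66.1%. The filter for tests, 10 or more in 3 or more tumours, passed 2100 copies, which held 71.6% of the signal. Of these, 607 lay in 3′ UTRs and held 44.7% of all older L1 signal, 665 lay in introns (5.69%), 417 outside genes (7.11%) and 304 in exons of non-coding transcripts (7.0%).

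Many exonic copies sat at the end of an annotated transcript. The 5213 exonic older copies included 1212 that hold a transcript's 3′ end (23.2%) and 564 that hold a start (10.8%). The shares were 34.0% and 29.1% for 1145 exonic young L1Md copies, and 15.3% and 8.92% for 48808 exonic copies of all TEs. Copies outside genes that passed the filter lay mostly just past a gene. Of the 417 tested copies outside genes, 246 (59.0%) were within 5000 bases downstream of their nearest gene and 31 (7.43%) within 5000 bases upstream. Among all 49591 older copies outside genes these shares were 13.7% and 10.1%. By signal, 37.9% of that of all 49591 copies lay within 5000 bases downstream and 54.4% farther than 5000 bases from a gene. Of the 21 copies outside genes that were called in any comparison, 9 lay downstream within that distance and 11 farther away.

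The lineages differed in where their signal lay. The 86 L1M subfamilies made up 31.9% of the copies and 48.7% of the signal, at 5.69 per kilobase, with 72.7% of their signal in exons. The 40 Lx subfamilies made up 57.2% of the copies and 42.7% of the signal, at 1.3 per kilobase, with 48.6% in exons and 27.2% outside genes. The 12 subfamilies of the L1_Mur, L1_Rod, L1_Mus and L1VL names had 9.49% of the copies and 6.41% of the signal, and the 5 HAL1 subfamilies 1.28% and 1.61%. These are levels per length over the same 12 libraries and were not tested against each other.

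The summed signal of older copies was higher in the tumours of the later passages, while its share of all TE signal differed less. The sum was 135595, 135049 and 143917 in F0 A, B and C, 201571, 176212 and 163190 in N2.1, 275359, 230711 and 183863 in Balb/c-2, and 199697, 175831 and 161796 in CBA. No tumour of a later passage was as low as an F0 tumour. As a share of all TE signal it was 7.93%, 7.94% and 8.01% in F0, 8.75%, 8.34% and 7.98% in N2.1, 11.1%, 9.84% and 8.01% in Balb/c-2, and 9.21%, 7.70% and 8.29% in CBA. Shares in each later passage overlapped those of F0. An exact two-sided permutation test over all 15400 partitions into 4 groups gave p = 0.143, or 0.616 adjusted over 5 values tested. Among the other 4 values, the log2 ratio of older to young L1 signal averaged 1.92 ± 0.03 in F0, 1.62 ± 0.21 in N2.1, 1.64 ± 0.46 in Balb/c-2 and 1.54 ± 0.18 in CBA (SD, n = 3 each; exact permutation p = 0.369, adjusted p = 0.616). Between 2 groups of 3 tumours the smallest exact p is 0.1, so no pair can pass 0.05.

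**Figure D1:**
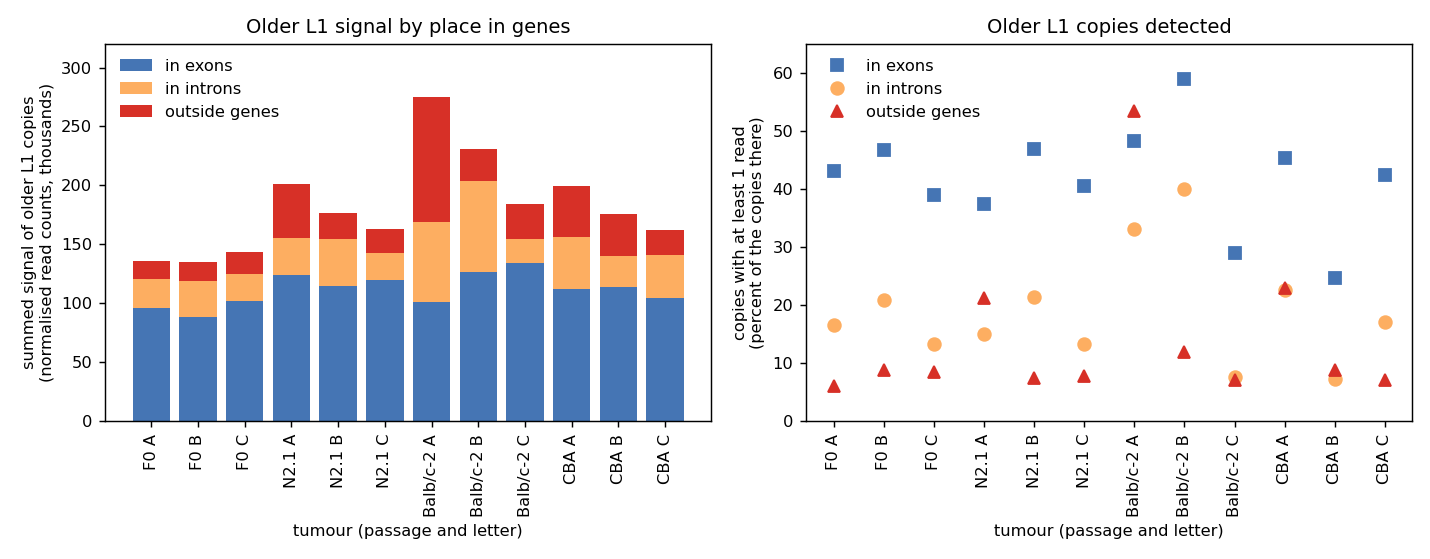
Left, summed signal of older L1 copies in units of 1000 normalised read counts for each of the 12 tumours, split by overlap with exons, introns and space outside genes; right, the percent of the copies in each place with at least 1 read. Balb/c-2 A stands highest in the left panel, and its copies outside genes were detected at 53.5% against 6.08% to 22.9% in the other 11 tumours.

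The share outside genes was set by single tumours, above all Balb/c-2 A. Of older L1 signal, 38.7% lay outside genes in Balb/c-2 A, against 11.7% and 15.8% in Balb/c-2 B and C. N2.1 A stood at 23.0%, with 12.1% and 12.6% in N2.1 B and C. CBA A and B stood at 21.7% and 20.3%, and CBA C at 12.9%. F0 A, B and C were at 11.2%, 11.9% and 13.5%. Group means were 12.2 ± 1.14% in F0, 15.9 ± 6.18% in N2.1, 22.0 ± 14.6% in Balb/c-2 and 18.3 ± 4.74% in CBA (SD, n = 3 each), and the exact permutation test over the 4 groups gave p = 0.592 (adjusted p = 0.740). Over the 2100 copies that passed the filter alone, the means were 8.80% in F0, 10.04% in N2.1, 10.3% in Balb/c-2 and 10.4% in CBA. Leaving out each tumour in turn put the gap between the highest and lowest group mean, 9.82 points with all tumours, between 6.08 and 15.0 points. The exonic share averaged 69.0 ± 2.85% in F0, 66.5 ± 6.12% in N2.1, 54.9 ± 18.1% in Balb/c-2 and 61.8 ± 5.03% in CBA (exact permutation p = 0.356, adjusted p = 0.616). The intronic share was highest in Balb/c-2 B, at 33.5% against 11.3% to 24.5% in the other tumours (exact permutation p = 0.797 over the groups, adjusted p = 0.797).

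In Balb/c-2 A, the excess outside genes was thin signal over very many copies. At least 1 read lay in 26514 of the 49591 older copies outside genes (53.5%), with a mean value of 4.02 per copy detected. The share detected was 22.9% in CBA A, 21.2% in N2.1 A and 6.08% to 11.9% in the other 9 tumours, with mean values per detected copy of 3.68 to 8.2. Copies below the filter supplied 88.4% of the signal outside genes in Balb/c-2 A and 33.3% to 68.6% in the other tumours. Young L1Md copies in Balb/c-2 A had 57.2% of their signal outside genes, against 15.5% to 38.2% elsewhere, and all other TEs 18.1%, against 9.75% to 14.9%. Older copies on the Y chromosome summed to 7542 in Balb/c-2 A, 2325 in N2.1 A and 2052 in CBA A, and to 113 to 491 in the other 9 tumours. The same tumour had the most genes with a read, 26376 against 19392 to 23954, and its B and plasma cell markers had the highest sum. The part of DNA in the library, of another cell type or of depth in this signal was not tested.

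Subfamily sums were compared to ask which older L1 subfamilies changed as the tumours were passaged. L1M2, an L1M subfamily, was higher than in F0 in all 3 later passages. Lx8, L1MC and L1MEi rose in N2.1 and L1Lx_III rose in Balb/c-2. limma was fitted on log2(value + 1) over all 1174 TE subfamilies tested, 117 of them older L1, and adjusted p-values are Benjamini-Hochberg corrected over all of them. In N2.1 against F0, 4 of 117 rose and 0 fell, where 2.3% of all TE subfamilies rose. In Balb/c-2 against F0, 2 rose and 0 fell, where 2.21% of all rose. In CBA against F0, 1 rose and 0 fell, where 0.767% of all rose. These counts stand near the background of all TE subfamilies. The median log2 change of the 117 was 0.23 in N2.1, 0.64 in Balb/c-2 and 0.26 in CBA, beside 0.16, 0.53 and 0.22 for all TE subfamilies. With quantile normalization of the table together with its genes, the N2.1 median became 0.09 for the older subfamilies and -0.01 for all.

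Besides the comparisons with F0, Balb/c-2 and CBA were each compared with the passage before them. In Balb/c-2 against N2.1, limma called 0 of 117, with 12 at an unadjusted p under 0.05, and edgeR's quasi-likelihood test on the recovered reads also called 0; either way, 0.0852% of all TE subfamilies were called by limma. In CBA against Balb/c-2, limma called 0, with 5 at an unadjusted p under 0.05, and edgeR called 0, where 0.17% of all TE subfamilies were called. With flow cell as a covariate, 11 older subfamilies were called higher and 1 lower in Balb/c-2 against N2.1, a fit in which the Balb/c-2 change rests on tumour A. Without Balb/c-2 B, 0 were called higher and 1 lower.

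L1M2 had sums of 5383, 4019 and 4257 in N2.1, 4539, 5641 and 4647 in Balb/c-2 and 5726, 7343 and 5232 in CBA, against 2617, 2354 and 2269 in F0. The groups did not overlap with F0 in any of these passages. The log2 change was 0.91 ± 0.20 in N2.1 (SE; limma adjusted p = 0.025), 1.03 ± 0.20 in Balb/c-2 (adjusted p = 0.0208) and 1.32 ± 0.20 in CBA (adjusted p = 0.00937). Of its 1938 copies, the highest supplied 41.8% of the signal. That copy lies in the 3′ UTR of Zbp1, an interferon-induced sensor of Z-form nucleic acids that can trigger cell death (chr2:173206745-173207146). It stood at 3097, 1331 and 2411 in N2.1, 1638, 1490 and 1645 in Balb/c-2 and 2296, 5329 and 1981 in CBA, against 803, 54.4 and 519 in F0. It made up 85.1% of the L1M2 difference between N2.1 and F0, 44.8% between Balb/c-2 and F0 and 74.4% between CBA and F0. Without this copy L1M2 was not called in any comparison (limma adjusted p = 0.951, 0.106 and 0.603 in N2.1, Balb/c-2 and CBA). With flow cell as a covariate the CBA call of L1M2 was lost (1.15, adjusted p = 0.0816).

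Lx8, the Lx subfamily with the highest mean of any older L1 subfamily (9180 copies), was at 24219, 22450 and 21095 in N2.1, against 10891, 11693 and 10966 in F0. All N2.1 tumours stood above all F0 tumours (log2 change 1.01 ± 0.22, limma adjusted p = 0.0267). Its highest copy, in the 3′ UTR of Gbp4, made up 37.0% of that difference. L1MC was at 2983, 2819 and 2340 in N2.1, against 1099, 844 and 1243 in F0 (1.36 ± 0.25, adjusted p = 0.0109). Its most abundant copy lies in the 3′ UTR of Cflar, the gene of an inhibitor of caspase-8, and made up 21.2% of the difference. An L1MC copy downstream of Gm12250 stood at 925, 875 and 642 in N2.1, against 71.0, 18.1 and 116 in F0, a larger difference than that of the Cflar copy. L1MEi, a small subfamily of 135 copies, was at 380, 374 and 429 in N2.1, against 117, 136 and 129 in F0 (1.62 ± 0.34, adjusted p = 0.0242). A single copy in the non-coding gene G530011O06Rik made up 86.8% of it. L1Lx_III was at 7596, 4025 and 4013 in Balb/c-2, against 2101, 1772 and 2257 in F0 (1.29 ± 0.30, adjusted p = 0.0425), with Balb/c-2 A the highest tumour.

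**Figure D2:**
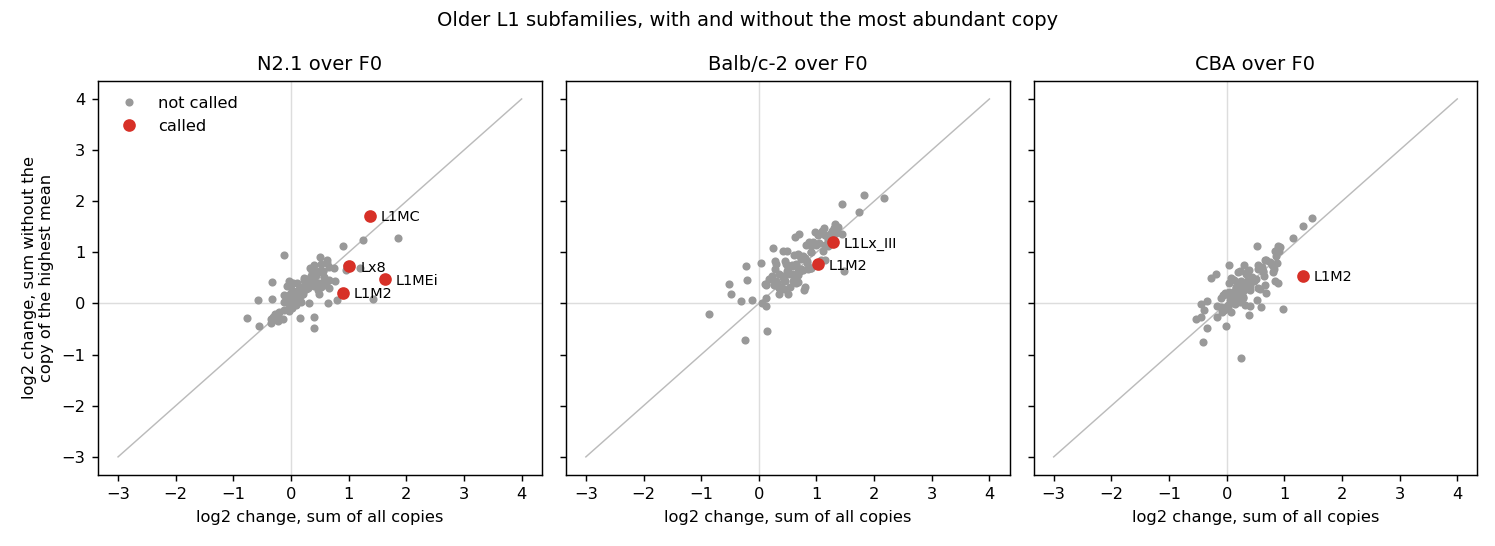
Log2 change against F0 of the tested older L1 subfamilies in the sum of all copies (horizontal) and in the sum without the copy of the highest mean (vertical), with called subfamilies in red and named. L1M2 lies below the diagonal in all 3 panels and L1MEi in the first, as 44.8% to 86.8% of their difference came from that copy.

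The subfamily calls rested on exonic copies and on single tumours. Without copies that overlap exons, 1 subfamily was called in N2.1 and 0 in Balb/c-2 and CBA, and without the top copy of each subfamily 0, 1 and 0. In N2.1 against F0, 0 were called without F0 A, F0 B or N2.1 A, 1 without F0 C or N2.1 C, and 7 without Balb/c-2 C, a tumour that enters only the shared spread. In Balb/c-2 against F0, 0 were called without F0 A, B or C, 1 without Balb/c-2 A, CBA A, CBA B or N2.1 C, 3 without Balb/c-2 B or N2.1 A, and 42 without Balb/c-2 C. In CBA against F0, 0 were called without CBA B and 3 without Balb/c-2 C. On the first flow cell alone, which holds all F0 and N2.1 tumours and Balb/c-2 A, 10 subfamilies were called in N2.1 and 39 in Balb/c-2. With flow cell as a covariate, 23 were called in Balb/c-2 and 14 in CBA. In that fit the Balb/c-2 change is that of tumour A alone, with a median log2 change of 0.83, as on the first flow cell. The CBA change is shifted by the gap between Balb/c-2 A and Balb/c-2 B and C. Neither count can therefore be read as corrected for flow cell.

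The other subfamilies with the highest means were not called, and each was led by copies in 3′ UTRs or non-coding exons. L1M5 was at 14779, 10800 and 13922 in N2.1, 17487, 14938 and 25604 in Balb/c-2 and 16488, 18499 and 15056 in CBA, against 15090, 12973 and 17666 in F0. Its highest copy, in Tceal9, held 20.1% of its signal. Lx9 was led by a copy in the non-coding gene Gm12606 (19.7% of its signal), Lx7 by the 3′ UTR of Gbp7 (12.9%) and Lx8b by that of Zfp871 (16.9%). L1_Rod was led by the 3′ UTR of Trim35 (53.3%), L1MC4 by that of Ero1l (33.1%) and Lx5c by that of Cybb (42.4%). Their limma adjusted p-values were 0.212 or more in N2.1, 0.0748 or more in Balb/c-2 and 0.358 or more in CBA.

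Splitting each subfamily by place gave 2566 tested sums over all TEs, 319 of them of older L1. In N2.1 against F0, 4 older sums rose and 0 fell, where 1.44% of all sums rose. Lx8 in exons was at 18343, 15549 and 16895 in N2.1, against 7195, 6939 and 7265 in F0 (log2 change 1.24 ± 0.23, limma adjusted p = 0.0150). L1MC outside genes was at 1313, 1781 and 1011 in N2.1, against 162, 81.1 and 185 in F0 (3.30 ± 0.62, adjusted p = 0.0150). The groups did not overlap for either sum, and an L1MC copy 1628 bases downstream of Gm12250, annotated as a pseudogene, led the second. Gm12250 itself averaged 6755 ± 1061 in N2.1, against 956 ± 665 in F0 (SD), and was called higher (log2 change 3.26, limma adjusted p = 0.0103). The other called sums were L1MEi in exons and L1Lx_III in exons. The L1Lx_III sum changed sign when the larger part of a copy had to lie in exons, to a log2 change of -0.32.

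In the other 2 comparisons with F0, no older sum was called by place. In Balb/c-2 against F0, limma and edgeR each called 0 of 319, with 67 at an unadjusted limma p under 0.05, where 0.468% of all sums rose. In CBA against F0 they also called 0, with 22 at an unadjusted p under 0.05, where 0.234% of all rose. Medians were still highest outside genes: 0.48 in N2.1, 1.18 in Balb/c-2 and 0.67 in CBA for 104 older sums outside genes, beside 0.34, 0.94 and 0.51 for all TE sums there. For 102 older sums in exons they were 0.06, 0.19 and 0.04, beside 0.07, 0.16 and 0.05. Without Balb/c-2 C, 52 older sums rose in Balb/c-2 against F0. In N2.1 against F0, 0 were called without F0 B, N2.1 A or N2.1 C, 1 without F0 A or N2.1 B and 2 without F0 C. In CBA against F0, 3 were called without Balb/c-2 B or Balb/c-2 C.

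Single copies showed which transcripts carried these sums. Of 20277 TE copies tested, 2100 were older L1. Of them, 26 rose and 4 fell in N2.1 against F0, where 1.38% of all TE copies rose and 0.306% fell. In Balb/c-2 against F0, 10 rose and 5 fell, where 0.567% of all rose and 0.222% fell. In CBA against F0, 15 rose and 6 fell, where 0.755% rose and 0.281% fell. Older copies were thus called at about the rate of all TE copies. edgeR on the recovered reads called 13 higher and 1 lower in N2.1, 5 and 1 in Balb/c-2, and 4 and 2 in CBA. Single tumours moved these counts. In N2.1, dropping N2.1 A left 3 copies called, dropping N2.1 B left 13 and dropping N2.1 C left 10, with 14 called without F0 B and 56 without Balb/c-2 B. In Balb/c-2, 29 were called higher and 47 lower without Balb/c-2 B, so that falls outnumbered rises, as they did on the first flow cell alone (8 higher and 21 lower). Totals were 23 without CBA B and 6 to 9 without Balb/c-2 A, CBA C, N2.1 A, N2.1 C or any F0 tumour. In CBA, 45 were called without Balb/c-2 B, 4 without CBA A, 5 without CBA C and 8 to 13 without CBA B, N2.1 C or any F0 tumour. Of the 25 calls of named copies, 15 were lost with flow cell as a covariate, including every call in CBA. In Balb/c-2, those of the copies near Cd300ld2, in Zfp354c, in Gm43719, of L1Lx_IV and of Lx8b on chromosome 16 were lost, and in N2.1 that in Cybb. edgeR lost 10 of the 25 calls, and a replicate block 6. Copies named for a change were picked with no overlap between the tumours of that passage and F0. Such separation is therefore set by the choice and lends no support of its own. By place, the called copies in N2.1 were 15 in exons (1.47% of those tested there, beside 1.40% of all TE copies in exons), 6 in introns (0.902%, beside 0.992%) and 9 outside genes (2.16%, beside 3.97%). In Balb/c-2 they were 6 (0.589%, beside 0.443%), 3 (0.451%, beside 0.638%) and 6 (1.44%, beside 2.33%). In CBA they were 7 (0.688%, beside 0.808%), 1 (0.15%, beside 0.779%) and 13 (3.12%, beside 2.33%).

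The Lx8 copy in the 3′ UTR of Gbp4, a GTPase induced by interferon that takes part in defence against intracellular pathogens (chr5:105116265-105116655), stood at 5318, 3239 and 4764 in N2.1, 959, 3486 and 1504 in Balb/c-2 and 2885, 2757 and 2290 in CBA, against 254, 24.8 and 398 in F0. Every tumour of the later passages was above every F0 tumour. The log2 change was 4.98 ± 0.79 in N2.1 (limma adjusted p = 0.00742), 3.64 ± 0.79 in Balb/c-2 (adjusted p = 0.0543, not called) and 4.25 ± 0.79 in CBA (adjusted p = 0.0229). The call was lost in N2.1 without N2.1 A (adjusted p = 0.0527), and in CBA without any 1 of its 3 tumours or with flow cell as a covariate. Gbp4 itself changed by 5.01, 3.69 and 4.18. Lx8 copies also lie in the 3′ UTRs of Gbp6, Gbp9 and the predicted gene Gm43302, which were chosen after their values were seen, and rose in N2.1 by 4.51, 2.97 and 4.50 on the log2 scale. The Lx8 copies of Gbp6 and Gm43302 were identical over 396 bases, so reads that lie wholly within them cannot be told apart. The copies of Gbp4 and Gbp6 shared 86.1% of 389 aligned bases. Lx8 copies 754 bases downstream of Gbp8 and 837 bases downstream of Gbp11 also rose in N2.1, by 4.92 on the log2 scale for the first, while the second had 139 reads in N2.1 and 3 in F0 (ratio 44.0, exact 95% counting interval 14.7 to 216).

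An L1MD2 copy in an intron of Ifi44l, an interferon-induced gene of antiviral defence (chr3:151761781-151762377), had 0 reads in all 3 F0 tumours. It stood at 14.2, 25.5 and 18.1 in N2.1, 23.1, 62.5 and 76.3 in Balb/c-2 and 46.0, 67.6 and 39.8 in CBA. Against a floor of 3 reads over the F0 tumours, it was at least 19.0-fold higher in N2.1, at least 53.1-fold in Balb/c-2 and at least 50.6-fold in CBA (limma adjusted p = 0.00283, 0.000329 and 0.000476). The copy passed the filter only through the later passages, and F0 at 0 shows no spread. These p-values therefore lend no support beyond the bounds. The calls held in each fit that left out 1 tumour, but the same limit holds for those fits, so they add no support. The N2.1 call was lost when 10 in place of 1 was added to each value before taking logs. The CBA call was lost with flow cell as a covariate. Ifi44l had 3780, 4527 and 2815 reads in N2.1, Balb/c-2 and CBA, against 2 reads in F0.

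The Lx5c copy in Cybb, which encodes the membrane subunit of the phagocyte NADPH oxidase (chrX:9435897-9436141), stood at 3359, 2736 and 3769 in N2.1, against 1079, 605 and 1213 in F0 (log2 change 1.82 ± 0.43, limma adjusted p = 0.0468). Cybb itself was not called (1.78, adjusted p = 0.0892). The call of the copy was lost in 9 of the 12 fits that left out 1 tumour, with adjusted p up to 0.219 without F0 B. The L1MC5a copy at the end of Ctse, the gene of the protease cathepsin E (chr1:131675168-131675539), stood at 67.2, 49.9 and 98.4 in N2.1 and at 467, 85.9 and 196 in Balb/c-2, but at 1.80, 3.56 and 0 in CBA, against 3.33, 0.954 and 3.85 in F0. N2.1 and Balb/c-2 were above F0 in every tumour (4.35 ± 0.74 and 5.86 ± 0.74, limma adjusted p = 0.00976 and 0.00152; the N2.1 call was lost without N2.1 A or C), while CBA overlapped F0 (-0.56, adjusted p = 0.857). The Lx8b copy in the 3′ UTR of Pik3cg, a phosphoinositide kinase of leukocytes (chr12:32173549-32174141), stood at 19.8, 20.2 and 19.9 in CBA, against 98.8, 89.7 and 96.4 in F0 (-2.19 ± 0.45, adjusted p = 0.0329). The call was lost in 8 of 12 fits that left out 1 tumour, including those without F0 A, B or C and without CBA A, B or C. An L1M5 copy in the 3′ UTR of Bst1, an ectoenzyme of myeloid and stromal cells, was chosen after its values were seen and rose in N2.1 and Balb/c-2 (3.55 and 3.87). Of 4 markers of all leukocytes, Laptm5 was called higher in N2.1 (0.87) and none in Balb/c-2 or CBA. Of 5 T cell markers, Cd8a was called higher in N2.1 (4.37) and none in the other passages. Of 5 macrophage markers, Csf1r was called lower in CBA (-1.09), where Cd68 (0.37) and the other 3 were not called, and none was called in N2.1 or Balb/c-2. Summed macrophage markers were 80576 to 87401 in N2.1, 49885 to 61772 in Balb/c-2 and 33877 to 86876 in CBA, against 52642 to 57967 in F0. The part of those cells in the levels of these copies was not tested.

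The Lx10 copy whose sequence is printed above was called in all 3 comparisons. It stood at 399, 311 and 379 in N2.1, 194, 334 and 329 in Balb/c-2 and 144, 206 and 101 in CBA, against 4.44, 12.4 and 12.5 in F0. Every tumour of the later passages was above every F0 tumour, as the rule that named the copy in all 3 comparisons required. Its log2 changes were 5.18 ± 0.46, 4.81 ± 0.46 and 3.87 ± 0.46 (limma adjusted p = 0.000158, 0.00018 and 0.00102), and those of its host lincRNA Gm44751 were 4.08, 3.66 and 2.73. An Lx4B copy in another part of Gm44751 rose in N2.1 and Balb/c-2 (4.07 and 3.43). The Lx10 calls held in every fit that left out 1 tumour, while with flow cell as a covariate CBA against F0 was not called (adjusted p = 0.51). The L1MB3 copy, also printed above, stood at 95.6, 108 and 157 in N2.1, against 3.33, 9.54 and 0 in F0 (5.05 ± 1.06, adjusted p = 0.0270). It was at 0, 13.1 and 0 in Balb/c-2, where it overlapped F0. Its N2.1 call was lost without F0 A, F0 C or any N2.1 tumour, and with edgeR (adjusted p = 0.157). All F0 values of this copy were under the filter of 10, so its p-value lends no support beyond the values. The Lx2B2 copy of Gm43719 stood at 40.5, 65.3 and 24.9 in Balb/c-2, against 242, 127 and 189 in F0 (-2.12 ± 0.43, adjusted p = 0.0372). That call was lost in 10 of 12 fits that left out 1 tumour, the exceptions being those without Balb/c-2 B and CBA B.

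**Figure D3:**
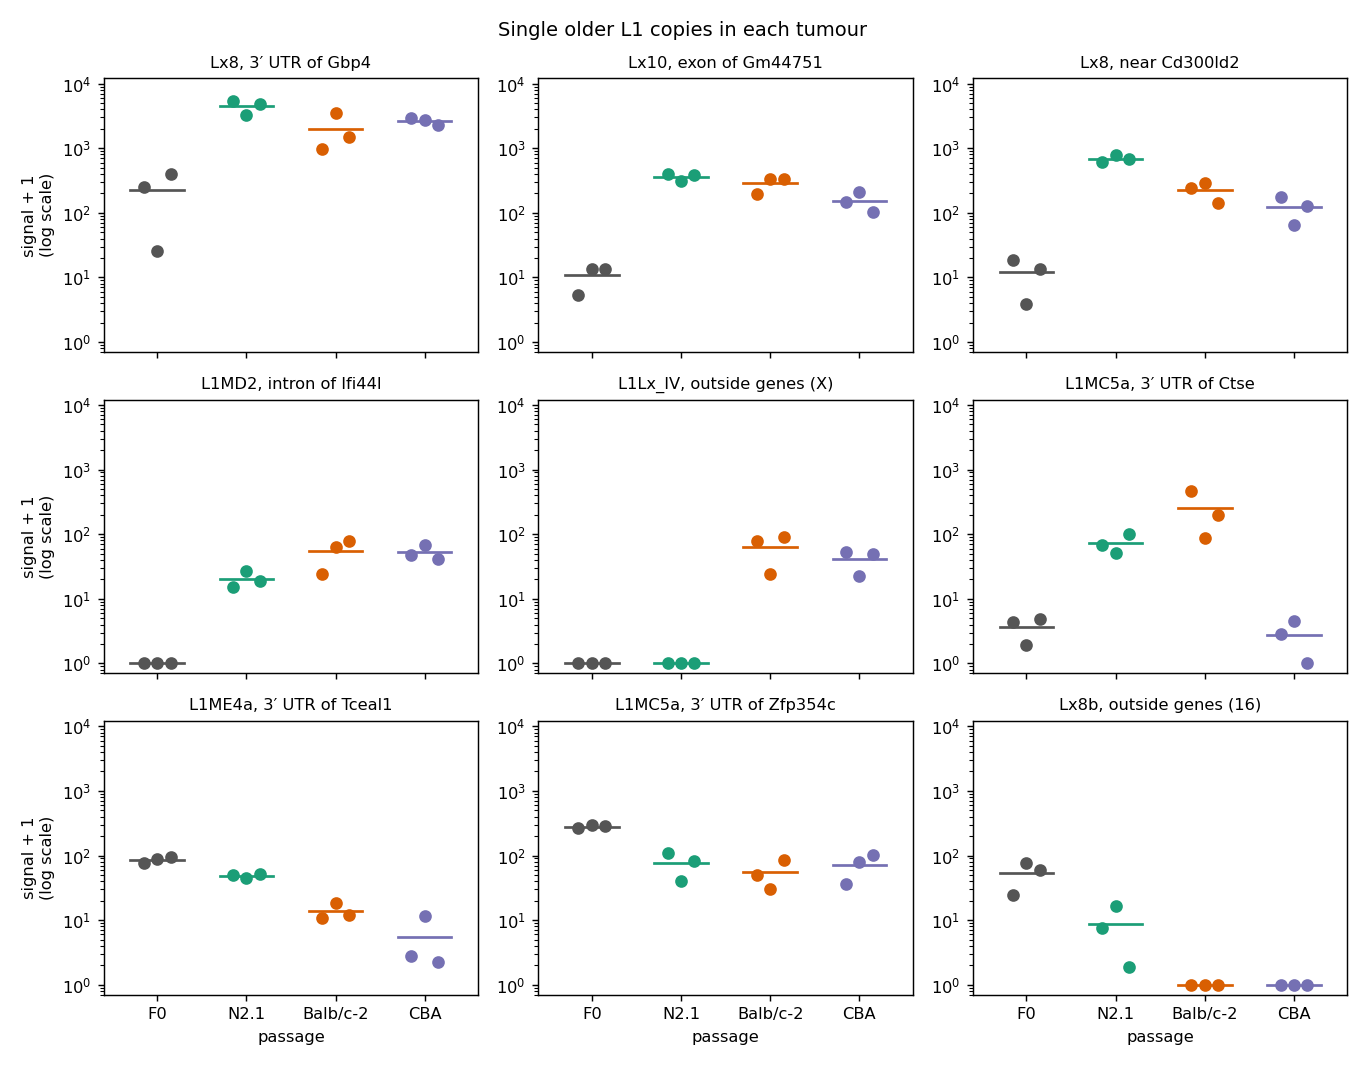
Signal plus 1 on a log scale of 9 older L1 copies in each tumour of the 4 passages, with points for tumours A, B and C from left to right and a line at the mean. The 3 copies of the top row lie above F0 in every tumour of the later passages, and the L1Lx_IV copy is at 0 reads in F0 and N2.1. Separation from F0 in a comparison was part of the rule for naming these copies.

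Outside genes, the largest rise in N2.1 was an Lx8 copy of 154 bases, 1492 bases downstream of Cd300ld2, a gene of the family of CD300 receptors of myeloid cells (chr11:115008690-115008843). It stood at 611, 771 and 681 in N2.1, 237, 291 and 142 in Balb/c-2 and 172, 64.0 and 127 in CBA, against 17.8, 2.86 and 12.5 in F0, with no overlap with F0 in any passage. Its log2 changes were 6.11 ± 0.57, 4.44 ± 0.57 and 3.51 ± 0.57 (limma adjusted p = 0.000208, 0.0016 and 0.0107). Cd300ld2 itself averaged 28.4 ± 22.4 in N2.1, against 3.45 ± 1.88 in F0 (SD, n = 3 each), and was not called (2.54, adjusted p = 0.0861). The call in CBA was lost without CBA A (adjusted p = 0.0780) or CBA C (adjusted p = 0.0555).

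Some copies far from genes were at 0 in 2 of the passages and present in the other 2. An L1Lx_IV copy of 1174 bases on the X chromosome (chrX:44079986-44081159), 232111 bases from the nearest annotated gene, stood at 76.1, 23.3 and 90.9 in Balb/c-2 and 51.4, 21.3 and 48.6 in CBA, with 0 reads in all 6 tumours of N2.1 and F0. It was at least 64.4-fold higher in Balb/c-2 and at least 41.2-fold higher in CBA than the F0 floor of 3 reads (limma adjusted p = 0.00241 and 0.00575). The copy passed the filter only through Balb/c-2 and CBA, and the tumours at 0 show no spread. These p-values therefore lend no support beyond the bounds. The call in CBA was lost without CBA A or CBA C. An Lx8b copy on chromosome 16 (chr16:80300365-80300720) showed the opposite pattern, with 0 reads in all 6 tumours of Balb/c-2 and CBA, 6.62, 15.3 and 0.903 in N2.1, and 23.3, 74.4 and 58.8 in F0. It was at least 61.6-fold lower in Balb/c-2 and at least 49.2-fold lower in CBA (limma adjusted p = 0.0177 and 0.0164). This copy passed the filter without the Balb/c-2 and CBA tumours, which at 0 show no spread, so the same limit holds for its p-values. An Lx2B copy close by (chr16:80302936-80303533), chosen after its values were seen, also had 0 reads in those 6 tumours. The calls of the Lx8b copy were lost without F0 B (adjusted p = 0.139 in Balb/c-2 and 0.120 in CBA) or F0 C, in both with flow cell as a covariate (adjusted p = 0.204 and 0.626), in Balb/c-2 also without F0 A or Balb/c-2 A, and in CBA also without CBA A or CBA C. An L1Lx_III copy on chromosome 10 (chr10:122351737-122352533) stood at 84.8, 9.49 and 92.1 in CBA, against 1.11, 1.91 and 0.964 in F0 (4.25 ± 0.92, adjusted p = 0.0437). Its call was lost without CBA A, CBA C or any F0 or N2.1 tumour. All F0 values of this copy were also under the filter of 10, so its p-value lends no support beyond the values.

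Other named falls lay in 3′ UTRs. The L1ME4a copy in Tceal1, of a family of small nuclear proteins related to an elongation factor (chrX:136709512-136709756), stood at 49.2, 43.8 and 50.6 in N2.1, 9.92, 17.7 and 11.2 in Balb/c-2 and 1.80, 10.7 and 1.25 in CBA, against 74.4, 86.8 and 95.4 in F0. All later tumours were below all F0 tumours, and CBA was called (-4.36 ± 0.61, limma adjusted p = 0.00371), a call lost with flow cell as a covariate (adjusted p = 0.404). Tceal1 fell by 4.10 on the log2 scale in CBA. The L1MC5a copy in Zfp354c, a zinc finger gene (chr11:50811174-50812165), stood at 48.8, 28.9 and 84.9 in Balb/c-2, against 265, 293 and 280 in F0 (-2.48 ± 0.52, adjusted p = 0.0452), and Zfp354c fell by 3.05. The L1_Mur3 copy at the end of Nxpe4 (chr9:48399398-48399828) stood at 13.2, 4.07 and 10.8 in N2.1, against 59.9, 57.3 and 74.2 in F0 (-2.76 ± 0.57, adjusted p = 0.0256), and Nxpe4 fell by 2.33. Without any 1 of the F0 tumours, the calls of the copies in Zfp354c and Nxpe4 were lost.

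Of the 6 copies of the highest mean, those in Gbp4 and Cybb were called as given above, and the other 4 were not called, nor were their genes. The L1MB2 copy at the end of Coa5, a factor for assembly of cytochrome c oxidase (chr1:37416839-37418304), averaged 3582 ± 942 in N2.1, 4734 ± 2228 in Balb/c-2 and 3554 ± 1028 in CBA, against 2531 ± 742 in F0 (SD, n = 3 each). L1M5 copies in Tceal9 and Tceal8 averaged 2623 ± 841 and 1335 ± 233 in N2.1, against 3331 ± 884 and 2434 ± 575 in F0, and neither was called. The L1_Rod copy at the end of Trim35, a ubiquitin ligase gene (chr14:66310848-66311435), stood at 8249 in Balb/c-2 C and 5966 in CBA B, against 1406 to 2929 in the other 10 tumours. Trim35 itself changed by 0.03 in Balb/c-2 and 0.10 in CBA, and its copy by 0.88 (limma adjusted p = 0.532) and 0.75 (adjusted p = 0.661). Balb/c-2 C and CBA B also had the fewest genes with a read, 20177 and 19392. The part of RNA quality in this was not tested.

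Exonic copies mostly changed in the direction of the gene that holds them. Among exonic copies called in N2.1 against F0, 14 had a tested host gene, all 14 changed in its direction, and for 13 the gene was also called. In Balb/c-2 the counts were 6, 6 and 6, and in CBA 7, 7 and 6. Background shares of genes called were 5% higher and 2.9% lower in N2.1, 1.88% and 1.63% in Balb/c-2, and 2.36% and 2.69% in CBA. Over 996 exonic copies with a tested host, Pearson's r between the log2 changes of copy and gene was 0.83 in N2.1, 0.66 in Balb/c-2 and 0.67 in CBA. Over 627 intronic copies it was 0.64, 0.44 and 0.46. Copy and gene changed in the same direction for 79.5% of the 996 exonic copies in N2.1, 65.2% in Balb/c-2 and 70.3% in CBA. For the 627 intronic copies these shares were 65.6%, 58.2% and 59.0%. These points share libraries and some share a gene. How a read that lies in both a copy and a gene was counted is not given in the sources used here, so copy and gene values may hold the same reads. Intronic copies could move against their gene: an Lx6 copy in Hdgfl3, chosen after its values were seen, had 62 reads in Balb/c-2 and 0 in F0, at least 17.9-fold higher, while Hdgfl3 fell by 4.73 on the log2 scale.

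**Figure D4:**
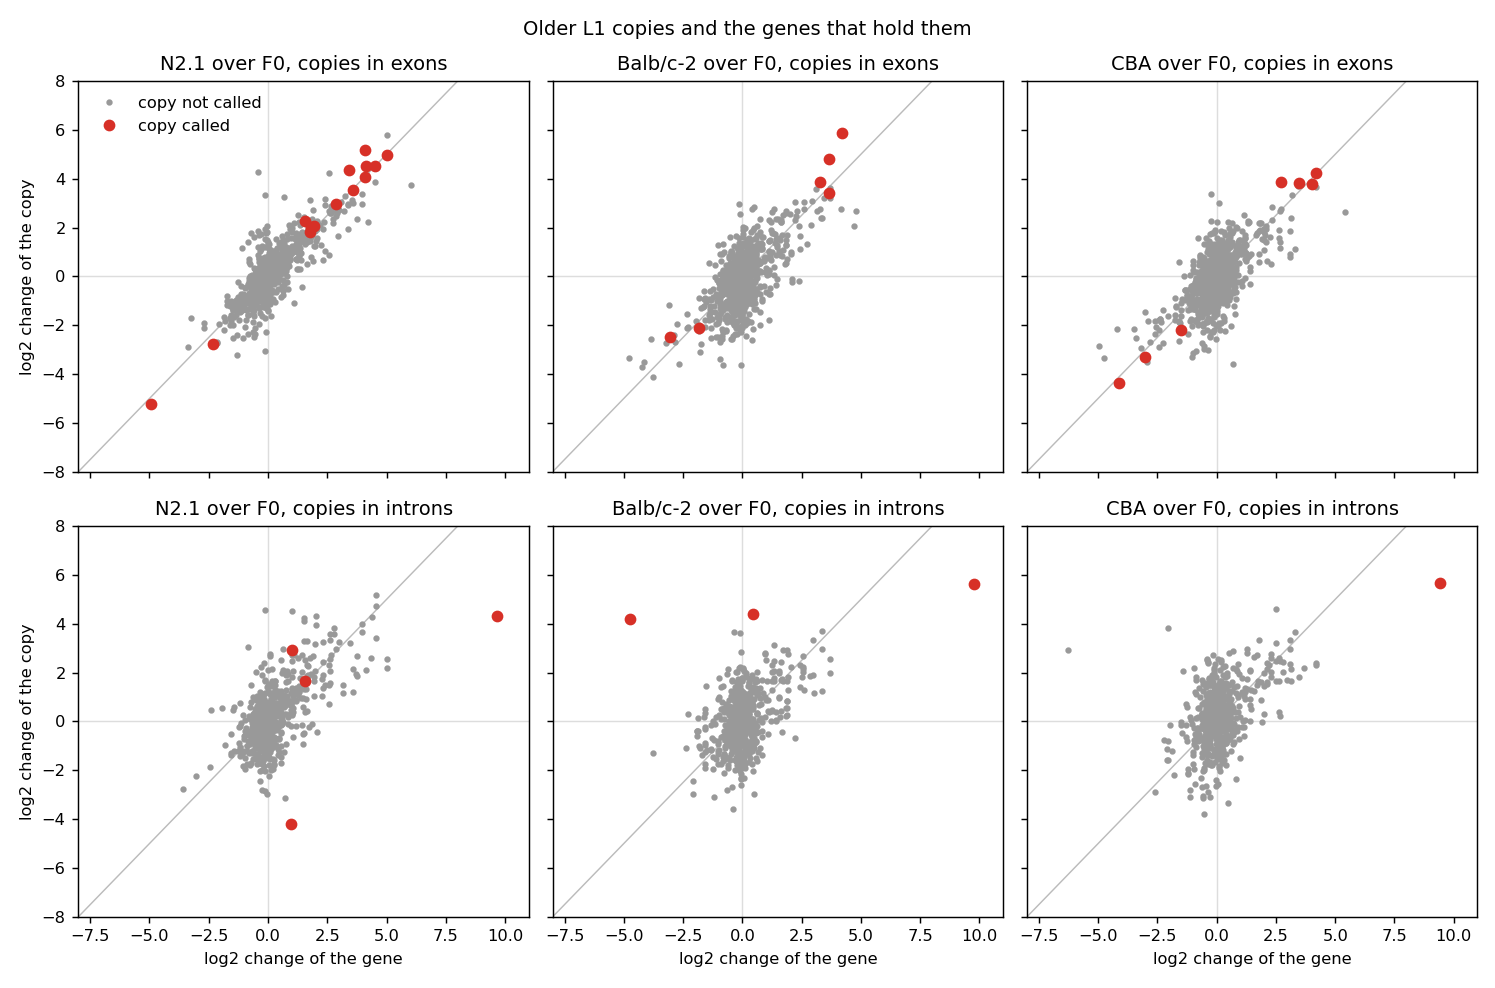
Log2 change against F0 of older L1 copies (vertical) and of the gene that holds them (horizontal), for copies in exons (top) and introns (bottom), with called copies in red and a diagonal of equal change. Called exonic copies lie near the diagonal, and over all exonic copies Pearson's r was 0.83, 0.66 and 0.67 from left to right.

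Genes known to silence, restrict or drive L1 elements were taken as a list of 35, of which 32 were tested. In N2.1 against F0, 1 rose and 4 fell, where 5% of all genes rose and 2.9% fell. Samhd1, a dNTP hydrolase that restricts retroelements, stood at 26279, 26206 and 24808 in N2.1, 13902, 23764 and 14499 in Balb/c-2 and 18413, 22708 and 14170 in CBA, against 9308, 4808 and 8190 in F0, and rose in all 3 (1.85, 1.24 and 1.34, limma adjusted p = 0.00488, 0.0441 and 0.0246). Uhrf1 and Hells, which act in the upkeep of DNA methylation, fell in N2.1 by 0.90 and 1.09, Tet1, a 5-methylcytosine oxidase, by 3.56. The other call was Morc1, a germline repressor of transposons, at 1.89, 0 and 0 in N2.1, against 7.77, 2.86 and 3.85 in F0. These levels are under the filter of 10, which Morc1 passed only through the other 2 passages, so this call shows no usable change. In Balb/c-2, 2 rose and 1 fell, where 1.88% of all genes rose and 1.63% fell: Samhd1 and Morc1 (7.22) rose and Sox2, a transcription factor (-2.29), fell. In CBA, 3 rose and 0 fell, where 2.36% rose and 2.69% fell: Samhd1, Apobec3, a cytidine deaminase that restricts retroelements (1.23), and Morc1 (7.34). Morc1 stood at 576, 884 and 1058 in Balb/c-2 and at 993, 682 and 1040 in CBA, against 7.77, 2.86 and 3.85 in F0. As Morc1 passed the filter only through these 2 passages, its calls there lend no support beyond these values. The counts of rises in both passages include it. Trim28 and Setdb1, the core of repression by KRAB zinc finger proteins, and Dnmt1, the maintenance DNA methyltransferase, were not called in any comparison. Over the tested listed genes the median log2 change was -0.19, -0.13 and -0.14, beside -0.02, -0.02 and -0.08 over all genes. With flow cell as a covariate, 1 of the list rose and 0 fell in Balb/c-2, and 1 rose in CBA.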

How the data were processed

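Polyadenylated RNA of 12 tumours was sequenced. Per the submitters' processing notes, HISAT2 2.0.5, StringTie 1.3.3b and featureCounts 1.5.0-p3 were used with the build mm10. The deposited values are a signal that the authors made by dividing read counts per repeat or gene by a size factor, as the values show: 100% came out as whole reads within a tolerance of 0.1. How reads with several matches were counted, and whether libraries kept strand, is not given in the sources used here. A copy was exonic if at least 1 base lay in an exon of GENCODE M21, intronic if it lay otherwise in a gene, and outside genes if neither.

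The main test was limma 3.58.1 (R 4.3.3, trend and robust) on log2(value + 1), a scale that understates changes of low features, for features with at least 10 in at least 3 tumours. Group means were fitted over all 12 tumours with 8 residual degrees of freedom, and p-values were Benjamini-Hochberg adjusted over all features of a table and called under 0.05. Errors of log2 changes are standard errors. edgeR 4.0.16 was run on the recovered reads as an alternative; it called 14, 6 and 6 older copies in N2.1, Balb/c-2 and CBA against F0. Bounds use a floor of 3 reads over a group, and bounds and intervals cover counting error only. Alignments used Biopython 1.88. Tested on simulated data for N2.1 against F0, the fit recovered 64% of fold changes of 4 among 1174 subfamilies, 32% among 2566 sums by place and 0% among 20277 copies.

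The labels name the tumours as different ones, and p-values measure the spread between them. The members and lists were chosen with earlier results of these data known. Text names the 8 subfamilies and 6 copies of the highest mean, and the largest called changes per comparison with a mean of at least 50 (for copies, with no overlap between groups), with their genes; other items are said to be chosen after their values were seen, as were the Zbp1, Cflar, G530011O06Rik and other top copies of subfamilies. The fit on the first flow cell alone was also chosen after seeing the data.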

Additional observations from a re-analysis of the deposited data

How the results depend on the processing

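Counts of called older subfamilies in N2.1, Balb/c-2 and CBA against F0 were 4, 2 and 1. They became 10 and 39 in N2.1 and Balb/c-2 on the first flow cell alone, 23 and 14 in Balb/c-2 and CBA with flow cell as a covariate (and 12 in Balb/c-2 against N2.1), 2 and 1 in N2.1 and Balb/c-2 with quantile normalization, 1 in Balb/c-2 without a filter, 1, 0 and 0 without exonic copies, and 0, 1 and 0 without top copies. Sums by place, 4, 0 and 0, became 9 and 90 in N2.1 and Balb/c-2 on the first flow cell, 56 in Balb/c-2 with the covariate, 2 in Balb/c-2 when the larger part of a copy had to lie in a place, and 1 each in N2.1 and CBA with quantile normalization. Copies, 30, 15 and 21, became 14, 6 and 6 with edgeR, 46, 29 and 34 with a filter at 3, 101 and 29 in N2.1 and Balb/c-2 on the first flow cell, 5 and 1 in Balb/c-2 and CBA with the covariate, and 40 in CBA with quantile normalization. With the covariate, called host genes became 4 in Balb/c-2 and 1 in CBA, and L1 control genes 1 higher and 0 lower in Balb/c-2 and 1 higher in CBA. With the 2100 tested copies alone, the gap between the highest and lowest group mean became 0.345 points for the share of TE signal and 2.41 for the exonic share. Signs reversed for L1MEi in N2.1 without exonic copies (-0.18) and L1Lx_III in exons when the larger part of a copy had to lie there (-0.32). The cause was not tested. With a replicate block on the tumour letter, copies called were 22, 9 and 8, and 1 L1 control gene rose in Balb/c-2 and in CBA and 1 fell in CBA; the letters name different tumours, and same-letter deviations correlated from -0.44 to 0.63, with 8 of 18 pairs over 0.1.

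Leaving out each tumour in turn gave, for N2.1, Balb/c-2 and CBA against F0, 0 to 7, 0 to 42 and 0 to 3 subfamilies, 0 to 5, 0 to 52 and 0 to 3 sums by place, and 3 to 56, 6 to 76 and 4 to 45 copies. It gave 0 to 1 subfamilies in Balb/c-2 against N2.1 and 0 to 0 in CBA against Balb/c-2. Gaps between group means ran from 0.961 to 2.51 points for the share of TE signal, 7.19 to 23.2 for the exonic, 2.32 to 11.4 for the intronic and 6.08 to 15.0 for the outside share, and 0.32 to 0.49 for the log2 ratio of older to young L1. Where reads are few, as in copies with 0 reads in a group, depth limits the fold to a bound.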
